A study of Gossypium hirsutum with 6 samples.

Results

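The regions described here are the H3K4me3 and H3K27me3 peaks on chromosomes A02, A03, D02 and D03 of allotetraploid cotton. They were chosen by chromosome name alone, and 19629 of the 174507 peaks in 4 peak lists met this rule. The H3K4me3 replicate 1 list held 8767 such peaks of 76736, which is 11.4% (95% exact interval 11.2 to 11.7). The H3K27me3 replicate 1 list held 2518 of 23427, which is 10.7% (10.4 to 11.2). Every group came from untreated leaves of Gossypium hirsutum TM-1, the standard upland cotton line, grown for 20 days in a greenhouse. Leaf chromatin was cut with micrococcal nuclease and precipitated with an antibody to H3K4me3 or to H3K27me3 or kept as input, with 2 libraries each, and the 4 antibody libraries have a peak list. Whole leaves mix many cell types, so a peak can come from some of the cells only, and the labels do not say whether the libraries of a mark came from separate plants.

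Upland cotton carries an A and a D subgenome from different diploid ancestors, with 13 chromosomes each, and a gene usually has a homeolog on the chromosome of the same number in the other subgenome. H3K4me3 marks nucleosomes near the start of transcribed genes, and H3K27me3 is set by Polycomb complexes over genes that are kept silent in a tissue. Chromosomes 2 and 3 of the A subgenome are a known exception to the pairing by number, since the A subgenome carries an exchange of arms between them. Such an exchange moves loci from A02 to A03 and back, and leaves the sum over both chromosomes as it was. The lists hold positions only and no gene order, so an exchange was looked for in peak numbers, in density profiles and in the order of peaks.

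Before the results, a conflict in the labels must be given. For both replicate 2 lists the deposited name gives one mark and the label of the sample gives the other. They are called here the list labelled H3K4me3 replicate 2, with 2964 peaks on the 4 chromosomes, and the list labelled H3K27me3 replicate 2, with 5380. Of these 5380 peaks, 89.9% overlapped an H3K4me3 replicate 1 peak and 1.52% an H3K27me3 replicate 1 peak, against 89.8% and 1.57% over all 26 chromosomes. Of the 2964 peaks, 80.9% overlapped an H3K27me3 replicate 1 peak and 32.4% an H3K4me3 replicate 1 peak, against 80.1% and 32.8% over all chromosomes. Median widths on the 4 chromosomes were 459.5 to 477 bp in the list labelled H3K27me3 replicate 2 and 1121 to 1265.5 bp in the list labelled H3K4me3 replicate 2. In position and width the replicate 2 lists were thus closer to replicate 1 of the other label, and each result below names the list it comes from.

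To describe the 4 chromosomes, peaks were first counted on each. In the H3K4me3 replicate 1 list A02 had 1932 peaks, A03 had 2280, D02 had 2714 and D03 had 1841. D02 was thus the richest and D03 the poorest of the 4. In the H3K27me3 replicate 1 list the numbers were 525 on A02, 561 on A03, 879 on D02 and 553 on D03. The list labelled H3K27me3 replicate 2 held 1179, 1483, 1622 and 1096 peaks in the same order, and D02 was again the highest and D03 the lowest. The list labelled H3K4me3 replicate 2 held 627, 644, 1023 and 670, with D02 the highest and the other three close together.

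Peaks were set against chromosome length, taken as the distance between the outermost peaks of the 4 lists. This length was 83.4 Mb for A02, 100.2 Mb for A03, 67.3 Mb for D02 and 46.7 Mb for D03. D03 was shorter than each of the 11 other D chromosomes, which ranged from 50.8 to 66.1 Mb, and D02 was longer than each of them. H3K4me3 replicate 1 had 23.2 peaks per Mb on A02 and 22.7 on A03, and 40.3 on D02 and 39.4 on D03. H3K27me3 replicate 1 had 6.29 and 5.60 peaks per Mb on the A chromosomes and 13.1 and 11.8 on the D chromosomes. Within each subgenome the 2 chromosomes were thus close in density, and all values lay inside the ranges of the 11 other chromosomes of their subgenome, which were 20.2 to 48.1 and 36.1 to 69.8 for H3K4me3 and 5.48 to 12.6 and 10.96 to 24.5 for H3K27me3.

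Widths differed little for H3K4me3, with medians of 492 to 495 bp on the 4 chromosomes. H3K27me3 peaks, called in a mode that joins neighbouring stretches, had medians of 1286 bp on A02, 1281 bp on A03, 1427 bp on D02 and 1440 bp on D03. The share of H3K27me3 replicate 1 peaks of at least 2 kb was 32.8% on A02, 32.3% on A03, 38.3% on D02 and 38.9% on D03. H3K27me3 peaks covered 1.37% and 1.16% of the A chromosomes and 3.12% and 2.69% of the D chromosomes. These widths and shares have no replicate error in a single list, and the list labelled H3K4me3 replicate 2 gave 29.2%, 30.1%, 33.1% and 33.1% for the share of at least 2 kb.

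To ask whether peak numbers fit an exchange within the A subgenome, D chromosomes were compared with A chromosomes of the same number, of the crossed number and in sum. The D over A log2 ratio of H3K4me3 replicate 1 peaks was 0.49 (0.41 to 0.58) for A02 and D02 and -0.31 (-0.40 to -0.22) for A03 and D03. The 11 other pairs, numbers 1 and 4 to 13, had a mean of 0.11 ± 0.14 (SD over pairs) and ranged from -0.03 to 0.47, so both straight pairs lay outside them on opposite sides. With the sum of both, 4555 peaks on D02 and D03 stood against 4212 on A02 and A03, a log2 ratio of 0.11 (0.05 to 0.17). The summed ratio differed from the mean of the other pairs by 0.01 on the log2 scale, much less than their SD, and lay above 7 of the 11. The limits of the other pairs were pair 5 (4320 peaks on D05 against 4425 on A05) and pair 4 (2209 on D04 against 1590 on A04). In the block match of loci described below, 3 clear blocks of A05 lay on D04. Without pairs 4 and 5 the summed ratio was 0.03 above the mean. The intervals reflect counting error alone and take each peak as independent of its neighbours.

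H3K27me3 gave a different sum. The log2 ratio of replicate 1 peaks was 0.74 (0.59 to 0.90) for A02 and D02 and -0.02 (-0.19 to 0.15) for A03 and D03. Summed, 1432 peaks on the D chromosomes stood against 1086 on the A chromosomes, a log2 ratio of 0.40 (0.28 to 0.51). The 11 other pairs had a mean of 0.26 ± 0.10 (SD over pairs) and ranged from 0.07 to 0.42, and the sum lay above 10 of them, 0.14 above their mean. Only pair 5 was higher (1514 peaks on D05 against 1130 on A05), and without pairs 4 and 5 the sum was 0.17 above the mean. The list labelled H3K4me3 replicate 2 gave 0.41 (0.31 to 0.52) for 1693 peaks against 1271, above all 11 other pairs, of which the highest had 0.38. The list labelled H3K27me3 replicate 2 gave 0.03 (-0.05 to 0.11) for 2718 against 2662, which was 0.01 below the mean of its other pairs. So the sum stood near the other pairs in the 2 lists of narrow peaks and at their upper end in the 2 lists of broad peaks.

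**Figure D1:**
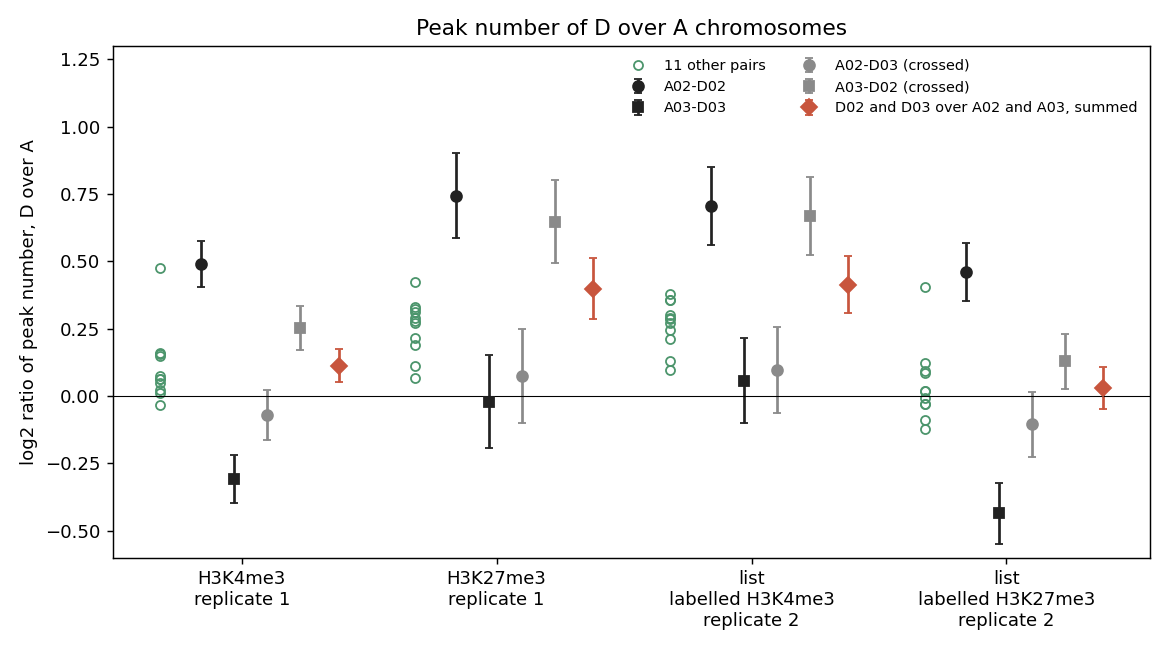
The vertical axis gives the log2 ratio of peak number, D over A, for each of the 4 lists. Open circles are the 11 other pairs, black and grey symbols the straight and crossed pairs of chromosomes 2 and 3, and diamonds the summed ratio, with 95% exact intervals. In H3K4me3 replicate 1 the diamond sits at 0.11 between the straight pairs at 0.49 and -0.31, and in H3K27me3 replicate 1 at 0.40 near the top of the other pairs.

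With crossed numbers, the result for single pairs depended on the list. For H3K4me3 replicate 1 the log2 ratio was -0.07 (-0.16 to 0.02) for A02 and D03, below all 11 other pairs, and 0.25 (0.17 to 0.33) for A03 and D02, above 10 of 11. Only pair 4 was higher. The difference between the 2 pairs was 0.80 straight and 0.32 crossed. For H3K27me3 replicate 1 the crossed ratios were 0.07 (-0.10 to 0.25) and 0.65 (0.49 to 0.80), a difference of 0.57, against 0.76 straight. In the replicate 1 lists neither pairing of whole chromosomes therefore gave both pairs a ratio within the range of the others. In the list labelled H3K27me3 replicate 2 the crossed ratios of -0.11 (-0.23 to 0.01) and 0.13 (0.03 to 0.23) both lay within its other pairs, which ran from -0.12 to 0.40. The upper limit was pair 4 (1270 peaks on D04 against 960 on A04), and the ratio of 0.13 lay above the 10 remaining pairs. In the list labelled H3K4me3 replicate 2 the crossed ratios were 0.10 (-0.06 to 0.26), at the lower end of its other pairs, and 0.67 (0.52 to 0.81), above all of them. Adding peaks on scaffolds that name a chromosome lowered the crossed difference in replicate 1 to 0.10 for H3K4me3 and 0.33 for H3K27me3.

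An exchange would take as many peaks from one A chromosome as it adds to the other, so net numbers were compared. They use the same counts and the same mean as the summed ratio. Their balance therefore restates that sum in peak numbers and is not a second result. At the mean D over A ratio of the other pairs, 2714 H3K4me3 peaks on D02 would go with 2520 on A02, and 1841 on D03 with 1709 on A03. A02 had 588 peaks fewer than that and A03 had 571 more, a deficit that was 1.03 times the excess. In the list labelled H3K27me3 replicate 2 the deficit was 397 and the excess 418, a ratio of 0.948. For H3K27me3 replicate 1 the deficit of 211 on A02 was 2.16 times the excess of 97.8 on A03, and in the list labelled H3K4me3 replicate 2 it was 2.58 times, 224 against 86.8. Length had the same directions but another balance, with 15.4 Mb missing on A02 and 31.7 Mb in excess on A03, a ratio of 0.485. The H3K4me3 numbers expected on A02 ran from 1953 to 2780 over the ratios of the 11 other pairs, with pairs 4 and 5 giving these limits. The even balance thus depends on taking their mean. From peak numbers alone an exchange and a separate loss and gain of peaks cannot be told apart.

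To compare where the peaks lie, they were counted in 1 Mb windows from the left end, meaning the first base, of each chromosome, which gave 83, 100, 67 and 46 full windows on A02, A03, D02 and D03. H3K4me3 was dense at both ends and thin in the middle of each. The median window held 14 peaks on A02, 13.5 on A03, 32 on D02 and 34.5 on D03, and the fullest held 131, 113, 126 and 125. The A and D chromosomes thus differed in their median over all windows and hardly in their fullest windows. The first 10 and last 10 full windows held 61.1% of the H3K4me3 replicate 1 peaks in full windows of A02, 54.4% of A03, 55.6% of D02 and 66.8% of D03, although they made up 24.1%, 20%, 29.9% and 43.5% of the windows. Peaks past the last full window, 54, 42, 56 and 52 in the same order, are left out of these shares.

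H3K27me3 followed the same outline at a lower level. Its replicate 1 median was 3 peaks per window on both A chromosomes, 8 on D02 and 8.5 on D03. Windows without any H3K27me3 replicate 1 peak numbered 21 of 83 on A02, 20 of 100 on A03, 3 of 67 on D02 and 6 of 46 on D03, while H3K4me3 replicate 1 left only 2 windows empty, both on A03. The outer 20 windows held 69.7%, 55.7%, 63.7% and 75.1% of the H3K27me3 replicate 1 peaks in full windows, which leave out 3, 12, 8 and 30 peaks past the last full window. Across windows of one chromosome the numbers of both marks had Spearman correlations of 0.79 to 0.83 (46 to 100 windows), near the median of 0.80 over the 22 other chromosomes. All windows of a chromosome come from the same libraries and share the fall from ends to middle, so this describes the profile only.

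**Figure D2:**
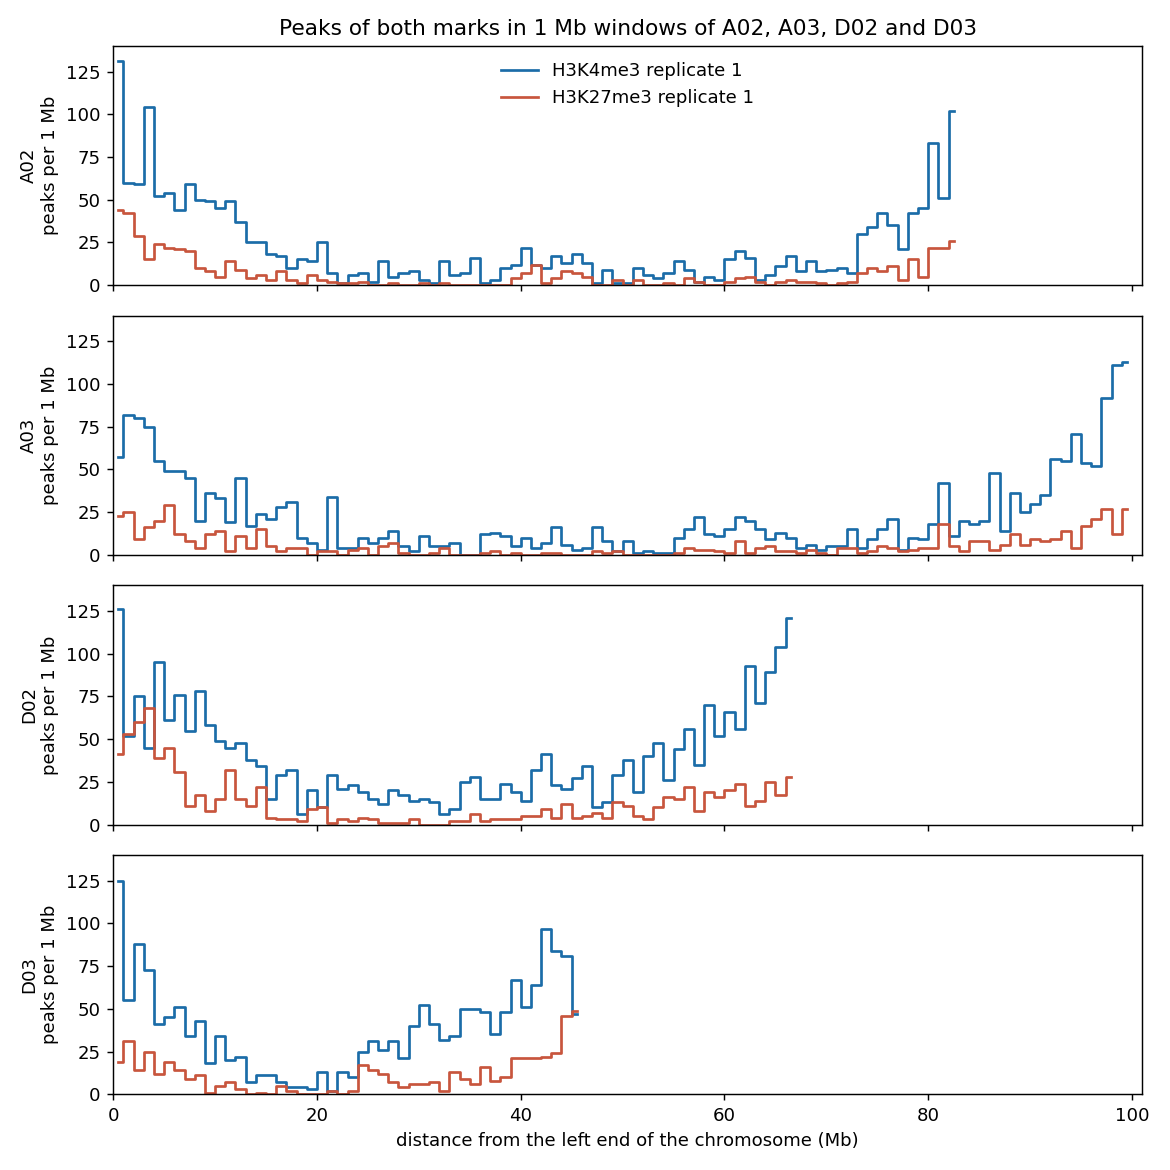
Each panel gives the number of peaks per 1 Mb window against the distance from the left end of the chromosome in Mb, for H3K4me3 (blue) and H3K27me3 (red) replicate 1. All 4 chromosomes fall from both ends to a thin middle, and H3K27me3 exceeds H3K4me3 only in single windows, as in window 4 of D02 with 68 against 45 peaks.

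The densest windows lay at the ends. On A02, D02 and D03 the window from base 1 to 1000000 held the most H3K4me3 replicate 1 peaks, and on A03 the window from 99000001 to 100000000 did so, in the coordinates of the authors' TM-1 assembly. These windows held 78, 82, 92 and 74 peaks in the list labelled H3K27me3 replicate 2 for A02, D02, D03 and A03. On A02 the first window was also the richest in H3K27me3 replicate 1, with 44 peaks. On the other chromosomes the most H3K27me3 lay elsewhere, with 29 peaks from 5000001 to 6000000 on A03, 68 from 3000001 to 4000000 on D02 and 49 from 45000001 to 46000000 on D03. The list labelled H3K4me3 replicate 2 had 32, 75 and 50 peaks in these 3 windows.

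Only 4 of the 296 windows had more H3K27me3 than H3K4me3 replicate 1 peaks, against 2.29% of all 1921 windows of the 26 chromosomes, so such windows were not frequent on the 4 chromosomes. They were 1 window of A02 with 3 against 1 peak, windows 2 and 4 of D02 with 53 against 52 and 68 against 45, and the last full window of D03 with 49 against 47. In the replicate 2 lists all 4 windows also held more broad than narrow peaks, but there 41 of 296 windows did so, against 15.3% of all 1921.

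The middles held long stretches without H3K4me3. The longest stretch without an H3K4me3 replicate 1 peak spanned 1208 kb on A02, from 21428777 to 22637016, and 2508 kb on A03, from 33778147 to 36285730. On D02 it spanned 695.5 kb, from 18443014 to 19138538, and on D03 761.6 kb, from 22867217 to 23628842. The A02 stretch held 1 H3K27me3 replicate 1 peak, that of D02 held 3, and those of A03 and D03 held none. The 10 consecutive windows with the fewest H3K4me3 peaks were those from 22 to 32 Mb on A02 (54 peaks), 45 to 55 Mb on A03 (46), 24 to 34 Mb on D02 (140) and 13 to 23 Mb on D03 (75). Left of the middle of these stretches lay 50.7% of the H3K4me3 replicate 1 peaks of A02, 44.8% of A03, 44.3% of D02 and 37.4% of D03. On A02 the place depends on the span, since the poorest 5 windows lay at 47 to 52 Mb and left 61.4% to their left. For H3K27me3 replicate 1 the share on the left was 57.7% on A02, 46.2% on A03, 58.6% on D02 and 32.2% on D03, so D02 had more H3K27me3 on the left and more H3K4me3 on the right.

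Widest peaks differed between the marks in how well they were found again, and so did peaks of any width. The widest H3K27me3 replicate 1 peak measured 15654 bp on A02, from 81686182 to 81701835, 17725 bp on A03, from 85851058 to 85868782, 29434 bp on D02, from 66944787 to 66974220, and 22410 bp on D03, from 4290784 to 4313193. Between 88.7% and 99.5% of each lay under peaks of the list labelled H3K4me3 replicate 2, and no base under the list labelled H3K27me3 replicate 2. The widest H3K4me3 replicate 1 peaks measured 2775 bp on A02, from 56300228 to 56303002, 3022 bp on A03, from 2014029 to 2017050, 2958 bp on D02, from 65638366 to 65641323, and 3035 bp on D03, from 30963990 to 30967024. Of these only the D02 peak touched either replicate 2 list, with 45.1% of its bases under the list labelled H3K27me3 replicate 2. Of all H3K27me3 replicate 1 peaks on the 4 chromosomes, 91.5% overlapped the list labelled H3K4me3 replicate 2. Of all H3K4me3 replicate 1 peaks there, 52.9% overlapped the list labelled H3K27me3 replicate 2. The difference is thus not particular to the widest peaks. Genes at these places are not named, because no annotation of this assembly was at hand.

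Both marks overlapped on the 4 chromosomes about as often as elsewhere. Of the H3K4me3 replicate 1 peaks 1204 of 8767 overlapped an H3K27me3 replicate 1 peak by at least 1 bp, which is 13.7% (13.02 to 14.5), against 14.0% over the 26 chromosomes. Of the H3K27me3 replicate 1 peaks 955 of 2518 overlapped H3K4me3, which is 37.9% (36.0 to 39.9), against 37.5%. The share was 14.0% (12.5 to 15.7) on A02, 11.9% (10.6 to 13.3) on A03, 15.0% (13.6 to 16.4) on D02 and 13.9% (12.3 to 15.5) on D03. The intervals of A03 and D02 do not overlap, and all others do. Between the replicate 2 lists the overlap was far smaller, with 66 of 2964 peaks of the list labelled H3K4me3 replicate 2 (2.23%) against 2.47% over all chromosomes.

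To ask which arm of A02 and A03 resembles which D chromosome, density profiles were compared over 20 equal parts of each length, in the same and in the reversed direction. For H3K4me3 replicate 1 the profile of A03 correlated with D02 at r = 0.95 in the same direction, and A02 with D02 at 0.90 in the same and 0.91 in the reversed direction. A03 and D03 reached 0.78, and A02 and D03 0.77. The 11 other pairs, each in its better direction, ran from 0.86 to 0.96, so the 2 combinations with D03 lay below all of them. In the list labelled H3K27me3 replicate 2 A03 and D03 reached 0.81, and A02 and D03 0.79. Its other pairs ran from 0.74 to 0.95, so both lay inside their range, though only pair 10 was lower. The H3K27me3 profile of A02 depended more on direction, with 0.93 in the same and 0.58 in the reversed direction for A02 and D02, and 0.67 and 0.91 for A02 and D03. That of A03 did so less, with 0.90 and 0.82 for D03 and 0.82 and 0.83 for D02. In the list labelled H3K4me3 replicate 2 these values were 0.93 and 0.61 for A02 and D02, and 0.72 and 0.91 for A02 and D03. A02, A03, D02 and D03 all had dense ends, and how much this adds to their correlations was not tested. High values in both directions were not general. Reversed H3K4me3 replicate 1 profiles of the 11 other pairs ran from -0.29 for A05 and D05 to 0.86 for A10 and D10. The profiles did not separate straight from crossed pairs (means differed by -0.02 for H3K4me3 and 0.04 for H3K27me3).

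The order of peaks gave a finer measure. Runs of 100 consecutive H3K4me3 replicate 1 peaks of an A chromosome were aligned, in both directions, to the peaks of each of the 13 D chromosomes by peak width and distance to the next peak, with settings tuned on the 11 other pairs. On those pairs 43.1% of the 290 blocks scored best on the D chromosome of their own number, and 20 blocks (6.90%) did so on D02 or D03. Of the 41 blocks of A02 and A03, 20 scored best on D02 or D03, 8 on the former and 12 on the latter, a share of 48.8%. Only 9 of these 20 lay on the D chromosome of the same number. A block was called clear where its best score was at least 1.25 times that of the next chromosome, which 41 of the 290 other blocks met, 90.2% of them on their own number. For A02 and A03 only 2 blocks met it, 1 of each, both on their own number. At this block length the match was thus too weak to place single stretches.

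A second version was set up after these results were seen. Peaks less than 600 bp apart were merged to loci, blocks held 200 loci in steps of 100, so that neighbouring blocks share loci, and overlap with H3K27me3 peaks was added as a feature. On the 11 other pairs 112 of 234 blocks were clear and 96.4% of these lay on their own number, with none of the 112 on D02 or D03. Counting every best score, clear or not, 25 of the 33 blocks of A02 and A03 lay on D02 or D03 (75.8%), beside 14 of the 234 other blocks (5.98%), all on D02. On the D chromosome of their own number lay 14 of the 33 blocks (42.4%), beside 72.2% of other blocks. Since other blocks also fell on D02, blocks that were not clear were not read singly. On A02 and A03 14 of 33 blocks were clear, 8 on D02, 5 on D03 and 1 on D04. In order along the chromosome they formed 4 segments. A segment runs from the first to the last of successive clear blocks with the same D chromosome and direction. Blocks that were not clear can lie within it.

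The left segment of A02, from 4.05 to 21.2 Mb, held 4 clear blocks, all on D02 in the same direction, ending there at 8.49 to 17.4 Mb. The right segment of A02, from 77.8 to 83.1 Mb, held 2 clear blocks on D03 in reversed direction, ending at 1.29 and 0.306 Mb. The left segment of A03, from 1.72 to 16.5 Mb, held 3 clear blocks on D03 in reversed direction, ending at 40.7 to 32.2 Mb. The right segment of A03, from 85.6 to 100.2 Mb, held 4 clear blocks on D02 in the same direction, ending at 61.0 to 67.2 Mb. The single block on D04 spanned 74.2 to 80.3 Mb of A02 and shares loci with 1 of the 2 clear D03 blocks. In these clear blocks each A chromosome thus had its left end on the D chromosome of the same number and its right end on the other, with D02 read forwards and D03 backwards.

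**Figure D3:**
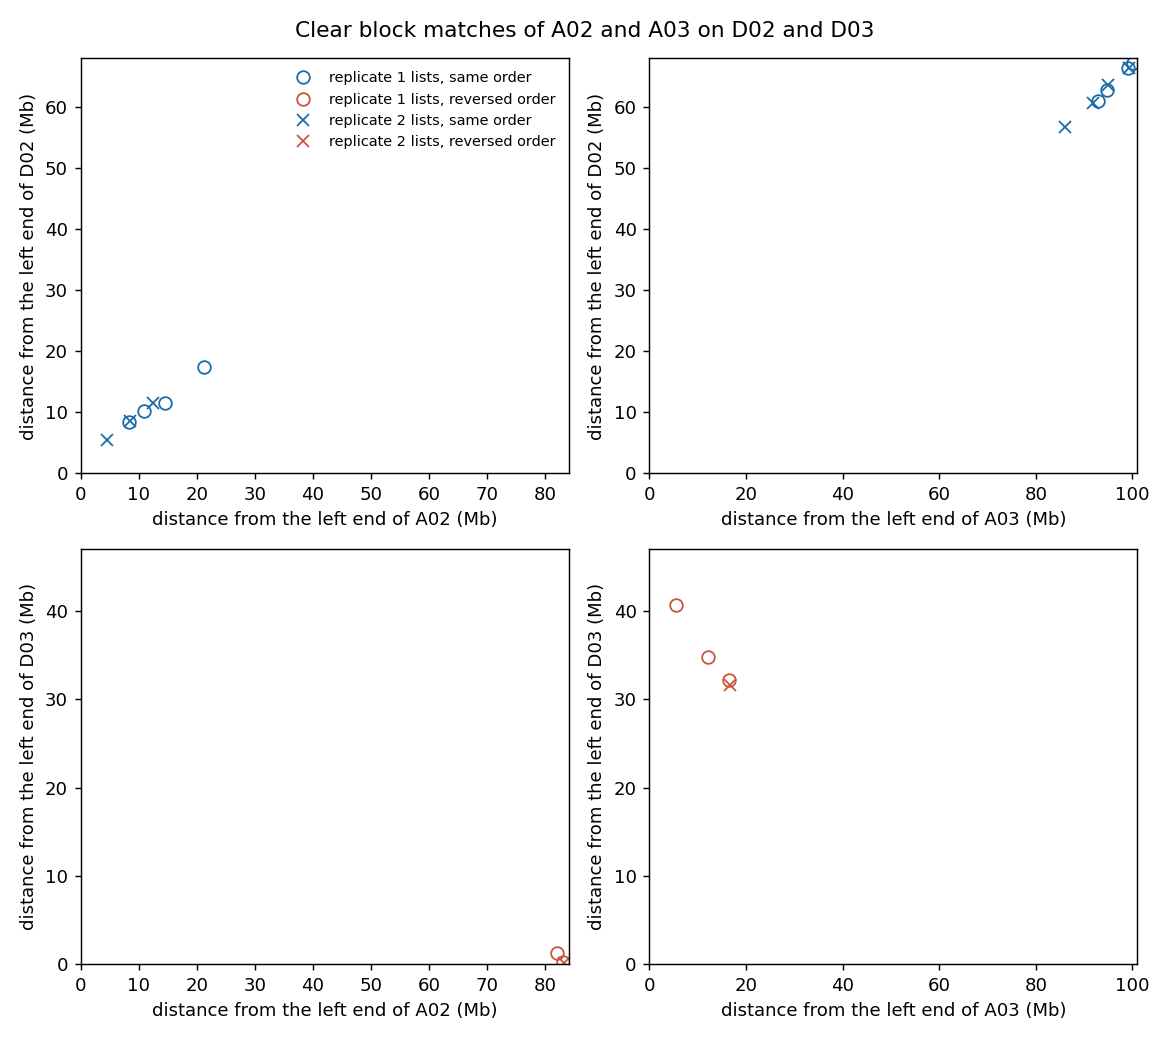
Each panel sets the right end of a clear block on A02 or A03 against the place where its best match ended on D02 or D03, both as distance from the left end in Mb. Circles are replicate 1 and crosses replicate 2 lists, blue is the same and red the reversed direction. Clear blocks lie at the left end of A02 and the right end of A03 on D02, and at the right end of A02 and the left end of A03 on D03.

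The match was also run from the D side and in other lists. Of 35 blocks of D02 and D03, 12 were clear, beside 95.3% of clear D blocks of the other pairs on their own number. On D02, 5 clear blocks from 4.61 to 21.5 Mb lay on A02 and 2 from 54.1 to 66.7 Mb on A03, in the same direction. On D03, 3 clear blocks from 0.00440 to 7.02 Mb lay on A02 and 2 from 39.0 to 44.1 Mb on A03, in reversed direction. Without the H3K27me3 feature 10 of the 35 D blocks were clear, beside 94.9% of clear D blocks of the other pairs on their own number. Of these 10 blocks 8 lay on A02, 1 of D02 on A03 and 1 of D02 on A08, and none of D03 lay on A03. In the first version, with runs of 100 peaks, 9 of 45 D blocks were clear, 3 on A02, 4 on A03, 1 on A05 and 1 on A10, beside 87.5%. From the A side without the H3K27me3 feature 10 of 33 blocks of A02 and A03 were clear, 6 on D02 and 4 on D03, beside 94.8% of clear blocks of the other pairs on their own number. With the replicate 2 lists 9 of 20 blocks were clear, 7 on D02 and 2 on D03, beside 95.9% of clear blocks of the other pairs on their own number. By best score alone 15 of 20 lay on D02 or D03 (75%), beside 5% of other blocks. On their own number lay 8 of 20 (40%), beside 76.4% of other blocks. The segments of clear blocks in the replicate 2 lists were 0.0103 to 12.5 Mb and 78.1 to 83.3 Mb of A02, and 5.78 to 16.7 Mb and 58.0 to 99.3 Mb of A03. Distances between peaks come from the same assembly in both replicates, so the replicate 2 lists repeat the chromatin measurement and not the map. The thin middle of A02 and A03 gave no clear block in the replicate 1 lists, and where one segment passes into the next was not found.

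The block match orders the chromosome ends, so the outer 10 Mb were then compared end by end, a comparison also chosen after the data were seen. For H3K4me3 replicate 1 the left end of A02 held 662 peaks and that of D02 721, a log2 ratio of 0.12 (-0.03 to 0.28). The right end of A02 held 523 and the left end of D03 573, a ratio of 0.13 (-0.04 to 0.31). The left end of A03 held 549 and the right end of D03 642, a ratio of 0.23 (0.06 to 0.39). The right end of A03 held 711 and that of D02 793, a ratio of 0.16 (0.01 to 0.31). All 4 lay near the mean of 0.14 ± 0.20 (SD) over 18 ends of 9 other pairs, which leave out pairs 4 and 5. The A chromosomes are longer, so 10 Mb need not hold the same loci in both subgenomes.

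H3K27me3 differed between the ends. The left end of A02 held 235 replicate 1 peaks and that of D02 373, a log2 ratio of 0.67 (0.43 to 0.91). The left end of A03 held 159 and the right end of D03 258, a ratio of 0.70 (0.41 to 0.99). Both lay above all 18 other ends, which had a mean of 0.26 ± 0.19 (SD) and reached 0.59. The right end of A02 with the left end of D03 gave 130 against 155 and a ratio of 0.25 (-0.09 to 0.60), and the right ends of A03 and D02 gave 160 against 190 and 0.25 (-0.06 to 0.56), both near that mean. In the list labelled H3K4me3 replicate 2 the first 2 ratios were 0.65 (286 against 450) and 0.78 (180 against 310), again above all 18, and the others 0.19 and 0.16. The 2 ends that stand out are those on the D chromosome of the same number.

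**Figure D4:**
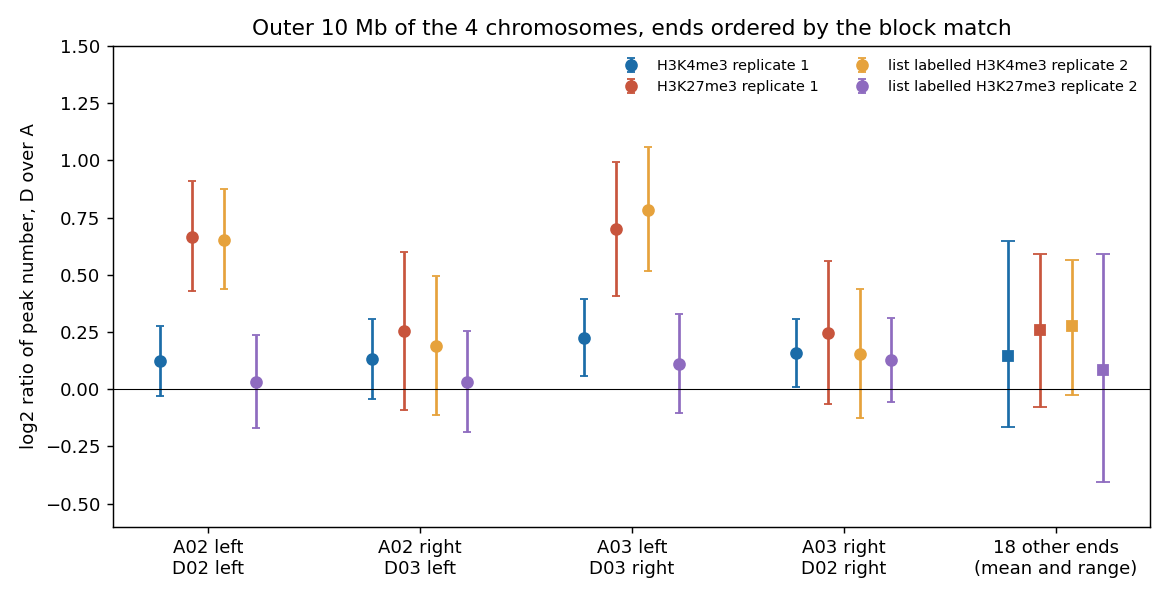
The vertical axis gives the log2 ratio of peak number, D over A, in the outer 10 Mb for the 4 ends of A02 and A03 with the D end that the block match sets beside them, with 95% exact intervals, for each list. Squares at the right give the mean of 18 other ends and their lowest and highest value. H3K27me3 replicate 1 and the list labelled H3K4me3 replicate 2 reach 0.65 to 0.78 at the left ends of A02 and A03, and the other lists stay between 0.03 and 0.23.

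The extra H3K27me3 lay in runs of neighbouring windows. In the first 7 windows of D02 H3K27me3 replicate 1 had 41, 53, 60, 68, 39, 45 and 31 peaks, and in those of A02 it had 44, 42, 29, 15, 24, 22 and 21. D02 was thus level with A02 in the first window and higher in the following 6. Windows 2 to 4 together held 181 peaks on D02 and 86 on A02, while H3K4me3 replicate 1 went the other way with 172 against 223. The list labelled H3K4me3 replicate 2 had 197 against 104 there, and the list labelled H3K27me3 replicate 2 had 74 against 138. In the replicate 1 lists clear blocks between A02 and D02 started only at 4.05 Mb on A02 and 4.61 Mb on D02. Without the H3K27me3 feature a clear block of D02 left of 4.61 Mb fell on A08. The replicate 2 lists gave clear blocks on D02 from 0.0103 to 12.5 Mb of A02. That windows 2 to 4 of A02 and D02 hold the same loci was not shown. On D03 the last 2 full windows held 46 and 49 H3K27me3 replicate 1 peaks, and the first 2 windows of A03, at the end set beside that of D03, held 23 and 25. No clear block reaches these windows of D03 past 44.1 Mb, so that they face each other was not shown. H3K4me3 replicate 1 had 128 against 139 peaks in these pairs of windows. These windows were picked for their values, so the numbers are a description, and whether genes or intergenic sequence carry the additional peaks was not tested.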

How the data were processed

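The authors, per the study's methods, trimmed ChIP-seq reads, aligned them with Bowtie2 to a published TM-1 genome, removed duplicates and reads of low mapping quality, and called peaks with MACS2, narrow for H3K4me3 and broad for H3K27me3. The lists differ between libraries. The deposited lists give chromosome, start and end only, with no score or read count per peak, so they do not show how deep a library was. Library totals stated by the study were not used here. Where peak numbers of different lists are set side by side, no correction was made for depth or for the mode of peak calling. Input libraries were not used here.

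Replicate 1 lists are the main data, as in the study. Groups follow the labels. Overlaps, windows and ratios were computed in Python 3.11.15 with numpy 2.4.6 and scipy 1.17.1, block alignment with numba 0.67.0, and figures with matplotlib 3.10.9. Scripts were tested on simulated data. Intervals are exact Clopper-Pearson intervals, also for the D share behind each ratio. No p-values were computed, since a mark has 1 main list and chromosome pairs are not replicates.

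Regions named are, per chromosome, the 1 Mb window richest in each mark, the longest stretch without H3K4me3 and the widest peak of each mark. Chromosomes, rules and comparisons were chosen with earlier results of these data known. Settings of the block match were tried over several rounds on the 11 other pairs, so their background shares are the best of those tried. The blocks of loci, the limit for a clear block, the outer ends and the windows set side by side were chosen after the data were seen.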

Additional observations from a re-analysis of the deposited data

How the results depend on the processing

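No paired analysis was possible because the results come from single lists and no test between libraries was run. Of 133 alternative values for 22 results, 103 kept within the limits set, 29 moved and 1 changed sign. Without replicate 1, using replicate 2 as labelled, the summed log2 ratio was 0.41 for H3K4me3 and 0.030 for H3K27me3, the deviation from the other pairs 0.15 and -0.012 (the change of sign), the H3K4me3 difference between straight pairs 0.65, and the excess on A03 15.6% for H3K4me3 and 39.3% for H3K27me3. The H3K4me3 likeness difference became 0.048, the median 1 Mb window 4.5 peaks for H3K4me3 and 12 for H3K27me3, the share of peaks left of the poorest stretch 57.6% on A02, 59.9% on D02 and 34.2% on D03, and the overlap of the marks 2.23%. With replicate 2 by deposited name, the H3K4me3 sum was 0.030, its median window 12, the left share of D02 41.7% and the overlap 1.38%. H3K4me3 peaks found again gave a sum of 0.035, and H3K27me3 covered bases 0.54. A poorest stretch of 5 Mb moved the left share of A02 to 61.4%, and an overlap of 50% of the H3K4me3 peak gave 12.01%. The share of A02 and A03 blocks on D02 or D03 was 28% in the replicate 2 narrow list, 14.6% by width alone, 75.8% for loci with H3K27me3 and 75% for loci in replicate 2. Of the blocks of the 11 other A chromosomes, 7.82%, 10.7%, 5.98% and 5% lay there in the same order, so the share by width alone was near that of other blocks. In most moved values the list itself differs. The cause was not tested.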

Other observations

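Peaks on scaffolds that name a chromosome without a place on it were not spread evenly over the 4 chromosomes. In the H3K4me3 replicate 1 list 118 such peaks named A02, 305 named A03, 62 named D02 and 214 named D03, and in the H3K27me3 replicate 1 list the numbers were 25, 85, 23 and 60. The chromosomes of number 3 thus had more unplaced peaks than those of number 2 in both subgenomes and for both marks. With these peaks added, the straight difference between the 2 pairs was 0.77 for H3K4me3 and 0.79 for H3K27me3 on the log2 scale.

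H3K27me3 replicate 1 peaks per 100 H3K4me3 replicate 1 peaks numbered 27.2 on A02, 24.6 on A03, 32.4 on D02 and 30.04 on D03. All 4 lay within the 11 other chromosomes of their subgenome, which ran from 23.2 to 36.6 for A and from 25.1 to 42.2 for D.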
